A study of Homo sapiens with 6 samples.

Results

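The cytosolic heat shock chaperone genes were described in SW480 cells with and without knockdown of the splicing factor RBM39. The 10 genes, of 56303 in the count table, were HSP90AA1, HSP90AB1, HSPA1A, HSPA1B, HSPA8, HSPH1, DNAJB1, HSPB1, HSPD1 and HSF1. They were chosen by name, as heat shock genes, on the counts of these same 6 libraries, after HSP90AA1 had been seen to be 3.09-fold higher in the knockdown. Their differences between the groups are therefore given as a description, with no test. The label covers 8 of the 10: HSPD1 encodes a chaperonin of the mitochondrial matrix, and HSF1 encodes a transcription factor.

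SW480 is an established line of human colorectal cancer cells. RNA was sequenced from 3 libraries of cells carrying a control hairpin (shCtrl) and 3 libraries of cells carrying a hairpin against RBM39 (shRBM39). The genotype was given as wild type in every sample, and both groups grew in the same serum-containing medium with no other agent. Hairpins were delivered by lentivirus and the lines were selected with puromycin. The methods call such lines clonal, so the libraries of a group may come from 1 line, and the knockdown and the line cannot then be told apart. Every SE and adjusted p below would then measure spread between libraries of 1 line, and none between lines. The methods give 3 replicate experiments a group.

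Heat shock proteins are molecular chaperones, which bind unfolded proteins and hold or refold them. HSP70 proteins take up new and unfolded chains with the help of J-domain proteins, which start the ATP cycle, and nucleotide exchange factors, which end it, and pass some clients on to HSP90. HSF1 is the main factor that binds heat shock elements, inverted repeats of a short unit, in the promoters of these genes when unfolded protein accumulates, and cancer cells commonly hold high levels of these chaperones.

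The promoter stretches below are shown because they hold the letters of a heat shock element in the promoters of the genes described. They come from RefSeq promoter windows of GRCh38.p14, from 250 bases before to 50 bases after each annotated start, and were found for 9 of the 10 genes and for 15 starts. The units searched were GAA and its reverse complement TTC. A match of 2 units was GAA and TTC, in either order, with 2 free bases between them, and a match of 3 units had a further unit in turn after 2 more free bases (GAA, TTC, GAA or TTC, GAA, TTC). Read in both orders these cover both strands, and each match of 3 units also holds 2 overlapping matches of 2 units. Capitals mark the matches, and each run reads 5′ to 3′ on the gene's strand. Where an exon is annotated over the match, no more than 30 bases are printed.
HSP90AA1: cTTCCGGAAGGTTCgggaggcTTCTGGAAa
HSP90AB1: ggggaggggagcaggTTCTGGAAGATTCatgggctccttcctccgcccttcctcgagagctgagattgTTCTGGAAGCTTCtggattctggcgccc
HSPA8 upstream: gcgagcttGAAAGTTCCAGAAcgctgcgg
HSPA8 near start: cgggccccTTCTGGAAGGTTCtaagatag
HSPD1: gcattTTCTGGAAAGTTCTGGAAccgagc
HSPA1A: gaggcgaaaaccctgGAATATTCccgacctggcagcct
HSPA1B: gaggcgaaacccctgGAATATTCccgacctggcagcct
DNAJB1: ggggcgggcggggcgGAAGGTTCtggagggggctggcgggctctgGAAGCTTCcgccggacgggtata
HSPB1: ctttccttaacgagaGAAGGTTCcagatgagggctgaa
CHORDC1: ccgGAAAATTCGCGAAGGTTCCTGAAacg

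These runs lie at chr14:102087104-102087133 on the minus strand for HSP90AA1, chr6:44247763-44247858 on the plus strand for HSP90AB1, and chr11:123062346-123062374 and chr11:123062171-123062199 on the minus strand for HSPA8. The run of HSPD1 is at chr2:197500062-197500090 (minus), that of HSPA1A at chr6:31815422-31815459 (plus), that of HSPA1B at chr6:31827618-31827655 (plus) and that of DNAJB1 at chr19:14518422-14518489 (minus). HSPB1 has its run at chr7:76302476-76302513 (plus). CHORDC1, at chr11:90223084-90223112 (minus), is not among the 10 genes. It encodes an HSP90 cochaperone and was added after its values were seen, as the only one of 10 cochaperones in the promoter table with a match of 3 units.

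A match of 2 units lay in at least 1 window of 8 of the 9 genes, or 88.9%, against 16.2% of the 27305 genes in the promoter table. By start, 9 of 15 windows, or 60.0%, held a match, against 13.5% of all windows of the same length. The 3-unit form was present in HSP90AA1, HSP90AB1, HSPA8 and HSPD1, 44.4% of the 9, against 0.608% of all genes in the table. In HSP90AA1 the match of 3 units began 88 bases before the second annotated start, in HSP90AB1 there was 1 at 165 and 1 at 112 bases before the third, and in HSPA8 at 230 and 55 bases. HSPA1A and HSPA1B each had a single 2-unit match, 106 and 105 bases before the start, in near-identical sequence. The HSPH1 window held no exact match of 2 or 3 units. The genes were chosen as heat shock genes, whose promoters are known for this element, so their high share is no finding of these data. A match is a description of sequence and no evidence of binding in these cells. Only exact units were counted, so a window without a match may still hold an element with a changed base.

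**Figure D1:**
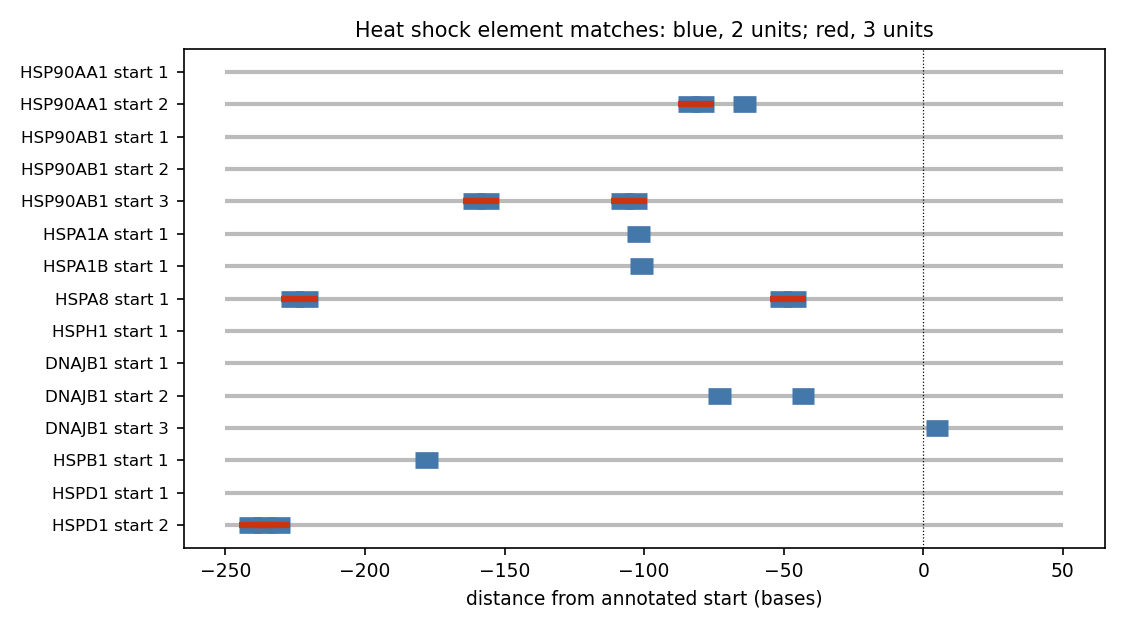
Position of heat shock element matches (x axis, bases from the annotated start, dotted line) in the 15 RefSeq promoter windows of 9 heat shock genes, 1 grey line a start. Blue boxes are matches of 2 units and red boxes matches of 3 units. 9 of the 15 windows hold a match, and the red boxes lie in HSP90AA1, HSP90AB1, HSPA8 and HSPD1.

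The libraries held 18042924 to 20428901 counts, and 18243 genes passed a filter on low counts, all 10 heat shock genes among them. RBM39 itself was at 434.6 to 447.7 CPM (counts scaled to library size with TMM factors) in shCtrl and 266.0 to 292.3 in shRBM39, a log2 difference of -0.67 ± 0.04 (SE, n = 3 a group, edgeR adjusted p = 1.24e-16). All 6 epithelial markers checked were detected, and their summed level was 10898 to 11654 CPM in shCtrl and 13879 to 14424 in shRBM39, a sum carried by KRT8 and KRT18. Of the 6 markers 2 were past the threshold higher (KRT8 at 0.43 and KRT18 at 0.24) and 3 lower (CDH1 at -0.39, VIL1 at -0.09 and CDX2, a transcription factor of the intestinal epithelium, at -2.13 ± 0.09, SE, edgeR adjusted p = 2.44e-20). The 4 fibroblast markers summed to 9.89 to 11.1 against 14.0 to 14.5 CPM with DCN at 0 in shRBM39, where COL1A1 went from 5.57 to 9.80 CPM and LUM from 4.84 to 4.54, and the 4 leukocyte markers to 0.895 to 1.44 against 2.22 to 2.81 CPM with the defining PTPRC at 0 in all 6 libraries and CD3E at 0 in shRBM39, nearly all of it LYZ at 1.20 against 2.45 CPM. Mitochondrially encoded genes took 6.90 to 7.28% of counts in shCtrl and 7.33 to 8.22% in shRBM39. The part of these differences in the results was not tested. In bulk RNA, fewer cells of a kind and less RNA a cell cannot be told apart.

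On CPM, 9 of the 10 heat shock genes were higher in all 3 shRBM39 libraries than in any shCtrl library, and HSF1 overlapped. On the deposited RPKM scale, which has no TMM factors, HSPB1 overlapped and HSF1 was lower in shRBM39 without overlap. Over all tested genes on CPM, 31.0% were higher without overlap and 32.3% lower without overlap. A split of the groups alone was thus common in these libraries. In the edgeR quasi-likelihood fit, 59.1% of tested genes passed an adjusted p of 0.05, 29.2% higher and 29.9% lower. Of those calls 49.4% were higher, and 33.9% with library totals in place of TMM factors. The median log2 difference of the 10 genes was 0.58, beside -0.01 over all tested genes. Together they took 0.865 to 0.940% of a shCtrl library and 1.54 to 1.61% of a shRBM39 library.

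**Figure D2:**
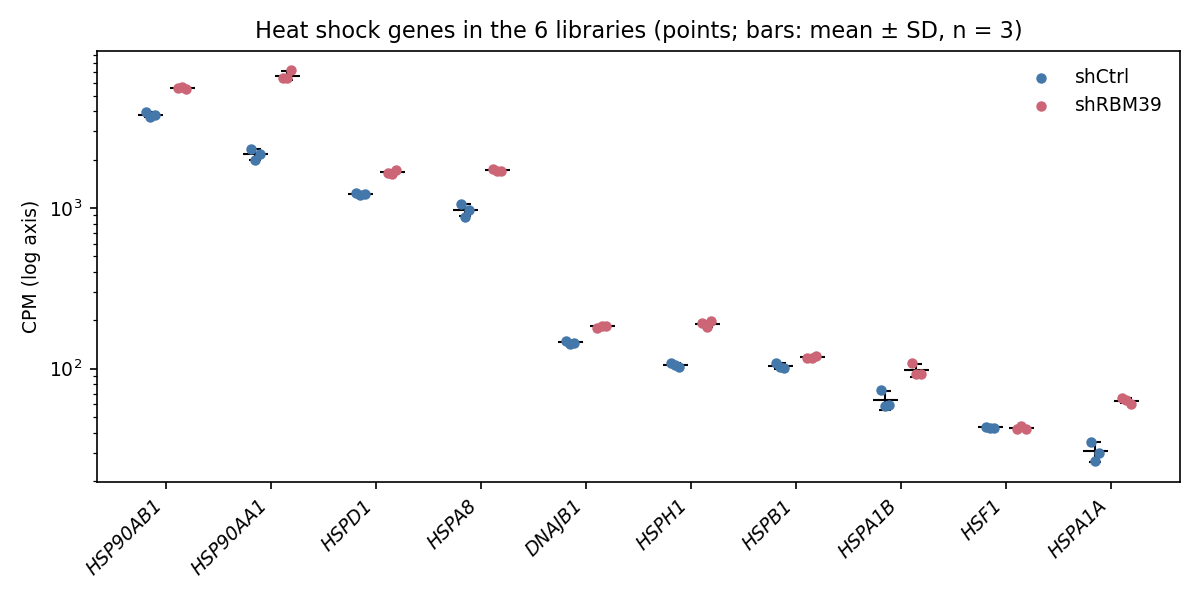
Level of each heat shock gene (y axis, CPM, log axis) in the 3 shCtrl (blue) and 3 shRBM39 (red) libraries, with the mean ± SD. 9 genes lie higher in every shRBM39 library, and the points of HSF1 overlap.

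HSP90AA1 encodes HSP90 alpha, the stress-inducible isoform of the cytosolic HSP90, which holds kinases, steroid receptors and other clients near their native fold. Its gene lies at chr14:102080738-102139699 (GRCh38, minus strand) in 11 merged exons. The counts were 46777, 42593 and 43976 in shCtrl replicates 1 to 3 and 125855, 110947 and 139650 in shRBM39 replicates 1 to 3. Scaled, these were 2321, 2006 and 2164 CPM against 6424, 6446 and 7210 CPM. The groups stood far apart, and shRBM39 replicate 3 was the highest library. The mean moved from 2164 ± 157 to 6693 ± 448 CPM (SD, n = 3), a log2 difference of 1.63 ± 0.05 (SE) or 3.09-fold, which ranks 92 from the top among the 18243 tested genes. By its counts it was the gene ranked 36 to 40 in a shCtrl library and 7 to 10 in a shRBM39 library. It alone took 0.211 to 0.239% of the counts in shCtrl and 0.615 to 0.690% in shRBM39.

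HSP90AB1, at chr6:44246166-44253888 (plus strand, 14 merged exons), encodes HSP90 beta, the constitutive isoform. Its level was 3968, 3666 and 3822 CPM in shCtrl and 5597, 5651 and 5536 CPM in shRBM39. Every shRBM39 library was above every shCtrl library, with less spread among them. The log2 difference was 0.55 ± 0.04 (SE), 1.47-fold, and the gene moved from rank 14 to 15 to rank 10 to 11 in the libraries.

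The balance of the isoforms was read per length, as RPKM, which divides the reads of a gene by its exon length and by the size of the library, within each library, so that library scaling drops out. HSP90AA1 stood at 0.332, 0.311 and 0.322 of HSP90AB1 in shCtrl and at 0.652, 0.648 and 0.740 in shRBM39. No ratio of one group came near those of the other. The alpha isoform thus made 23.7 to 24.9% of HSP90 RPKM in shCtrl and 39.3 to 42.5% in shRBM39, with the beta isoform the higher of the pair in every library on that scale. On counts, without division by length, the mean ratio was 0.566 in shCtrl and 1.20 in shRBM39, and HSP90AA1 had more reads than HSP90AB1 in all 3 shRBM39 libraries. With the length of the canonical transcript in place of all merged exons, a choice added after the values were seen, the ratio was 0.433 to 0.463 in shCtrl and 0.909, 0.903 and 1.03 in shRBM39. The beta isoform was thus the higher in shCtrl on each scale, and which isoform was the higher in shRBM39 depended on the length used.

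HSPA8, at chr11:123057489-123063230 (minus strand, 9 merged exons), encodes HSC70, the constitutive HSP70 that serves folding, clathrin uncoating and chaperone-mediated autophagy. It was at 1058, 886 and 974 CPM in shCtrl and at 1756, 1703 and 1701 CPM in shRBM39. The groups did not overlap, and the spread was wider in shCtrl. The log2 difference was 0.82 ± 0.04 (SE), 1.77-fold. Small nucleolar RNA genes share 3.61% of its exon bases on the same strand.

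HSPA1A and HSPA1B encode near-identical, stress-inducible HSP70 proteins from single-exon genes at chr6:31815464-31817946 and chr6:31827735-31830255 (both on the plus strand). HSPA1A was at 35.0, 26.6 and 29.9 CPM in shCtrl and 65.3, 63.5 and 60.7 CPM in shRBM39, a log2 difference of 1.05 ± 0.06 (SE). HSPA1B was at 74.1, 58.6 and 59.5 against 108.5, 92.0 and 93.2 CPM, a log2 difference of 0.61 ± 0.06 (SE). Replicate 1 was the highest library of its group for both genes in both groups. Of the 100-base windows of their annotated transcripts, 72.4% of those of HSPA1A and 72.8% of those of HSPA1B also occur in another gene, mainly in each other. How reads with several matches were counted is not given in the sources used here, so the split between the pair is uncertain and their sum is the firmer value. The sum was 85.2 to 109 CPM in shCtrl and 154 to 174 CPM in shRBM39, and the count ratio of HSPA1B to HSPA1A was 1.99 to 2.21 in shCtrl and 1.45 to 1.66 in shRBM39. Set against this inducible pair, the constitutive HSPA8 made 83.4 to 84.9% of the RPKM of the 3 genes in shCtrl and 83.9 to 85.1% in shRBM39, ranges that overlap. The share depends on the length used. With canonical transcript lengths it was 91.4 to 92.3% in shCtrl and 91.7 to 92.3% in shRBM39, ranges that also overlap.

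HSPH1, at chr13:31134974-31162388 (minus strand, 17 merged exons), encodes HSP105, an HSP110 protein that exchanges nucleotide on HSP70 and helps to pull apart aggregates. It was at 109.0, 105.4 and 102.5 CPM in shCtrl and 192.8, 181.8 and 197.6 CPM in shRBM39. The groups were well separated. Its log2 difference of 0.85 ± 0.04 (SE), 1.81-fold, was close to that of HSPA8. Its promoter window held no exact match to the units searched, and inexact elements were not searched.

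DNAJB1 encodes HSP40, the J-domain partner of the cytosolic HSP70 proteins, at chr19:14514770-14529770 (minus strand, 8 merged exons). It was at 149.0, 143.4 and 145.2 CPM in shCtrl and 180.1, 185.7 and 184.3 CPM in shRBM39, without overlap. The log2 difference was 0.33 ± 0.04 (SE), 1.26-fold, and 0.21 with library totals in place of TMM factors. On either scaling it was smaller than that of the HSP70 genes it serves. Of its exon bases, 6.21% lie under TECR on the other strand.

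HSPB1, at chr7:76302544-76304295 (plus strand, 2 merged exons), encodes HSP27, a small heat shock protein that holds unfolded chains without ATP. It was at 108.5, 103.0 and 100.3 CPM in shCtrl and 116.2, 116.6 and 119.6 CPM in shRBM39. The groups were apart by less than 10 CPM at their nearest, and on the deposited RPKM scale they overlapped, 64.2 to 68.5 against 68.1 to 70.1. The log2 difference was 0.18 ± 0.04 (SE), and 0.05 with library totals in place of TMM factors.

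HSPD1, at chr2:197486581-197516737 (minus strand, 14 merged exons), encodes HSP60, which folds proteins in a barrel capped by HSP10, the product of the neighbouring HSPE1. It was at 1244, 1201 and 1217 CPM in shCtrl and 1644, 1638 and 1722 CPM in shRBM39. The groups did not overlap, with a log2 difference of 0.45 ± 0.04 (SE), 1.37-fold. HSPE1, the cap, rose from 307 to 716 CPM, a log2 difference of 1.22 ± 0.04 (SE, edgeR adjusted p = 1.40e-22). The ratio of HSPD1 to HSPE1 in RPKM moved from 1.84 to 1.88 in the shCtrl libraries to 1.04 to 1.14 in the shRBM39 libraries. The genes share a promoter region and 6.62% of the exon bases of HSPD1 lie under HSPE1 on the other strand, while HSPE1 shares 9.71% of its own with a same-strand read-through gene.

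**Figure D3:**
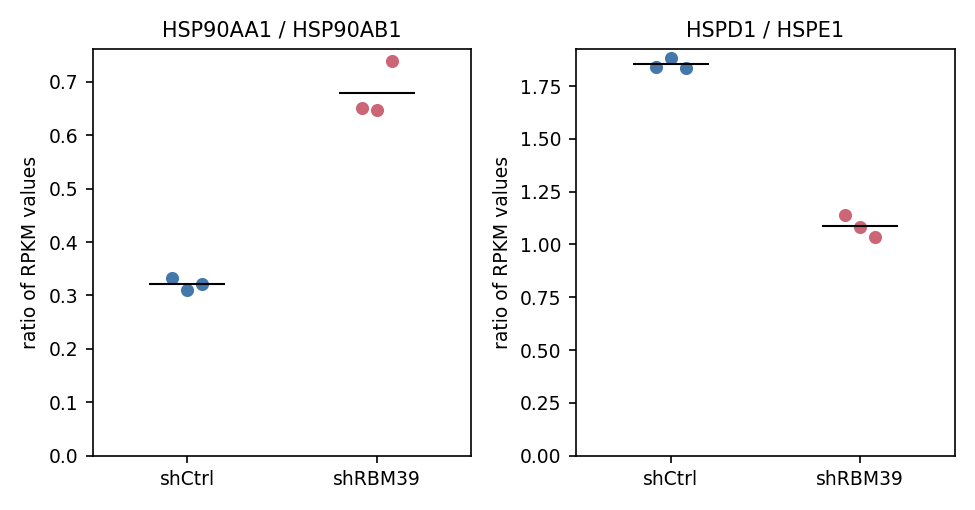
Ratio of RPKM values within each library (y axis, from 0) for HSP90AA1 over HSP90AB1 and for HSPD1 over HSPE1, with shCtrl in blue, shRBM39 in red and the group mean as a line. The HSP90 ratio is 0.311 to 0.332 in shCtrl and 0.648 to 0.740 in shRBM39, and the HSPD1 ratio is 1.84 to 1.88 and 1.04 to 1.14.

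HSF1, at chr8:144291591-144314722 (plus strand, 11 merged exons), encodes the main heat shock transcription factor, which is controlled largely at the level of the protein. Its level was 43.6, 42.7 and 42.9 CPM in shCtrl and 42.0, 43.8 and 42.4 CPM in shRBM39. The groups overlapped, and the log2 difference of -0.01 ± 0.05 (SE) sat at the middle of all tested genes. On the deposited RPKM scale, which has no TMM factors, HSF1 was lower in shRBM39, 8.44 to 8.48 against 7.59 to 7.87, so whether its groups overlap depends on the scaling. With library totals alone, its log2 difference was -0.14 and that of the median tested gene was also -0.14.

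Per length, the order of the shCtrl means was HSP90AB1 at 1335 RPKM, HSP90AA1 at 429.6, HSPD1 at 299.7, HSPA8 at 208.9, HSPB1 at 66.3, DNAJB1 at 41.4, HSPA1B at 26.5, HSPH1 at 13.1, HSPA1A at 12.8 and HSF1 at 8.46 RPKM. Neighbours in that order did not overlap between libraries, except HSPH1 and HSPA1A. In shRBM39, HSP90AB1 at 1796 and HSP90AA1 at 1220 RPKM still led, followed by HSPD1 at 376.0 and HSPA8 at 339.4. HSPA1A, at 24.3 RPKM, then lay above HSPH1, at 21.8, and no neighbours overlapped. The place of HSPA1A rests on its uncertain split from HSPA1B, and the order on the merged exon lengths. Per canonical transcript length, HSPH1 stayed above HSPA1A in shRBM39 (34.8 against 25.2), HSPA8 and HSPD1 overlapped there (726.9 and 711.0), as did HSP90AB1 and HSP90AA1 (2095 and 1984), and HSF1 (21.0) lay level with HSPH1 and above HSPA1A in shCtrl. HSPA8 lay above HSPA1A and HSPA1B in both groups with either length.

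**Figure D4:**
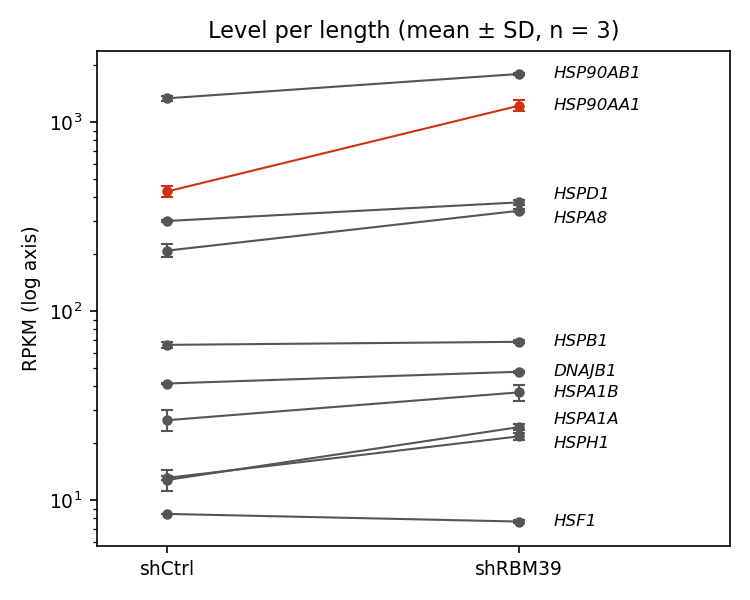
Mean level per length (y axis, RPKM ± SD, n = 3, log axis) of the 10 heat shock genes in shCtrl and shRBM39, with lines joining the same gene. HSP90AA1 (red line) moves from 430 to 1220 RPKM and stays below HSP90AB1, and HSPA1A and HSPH1 change places. These orders use merged exon lengths, and both differ in shRBM39 with canonical transcript lengths, where the ranges of the HSP90 pair overlap and HSPH1 stays above HSPA1A.

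The 5 other genes whose profile over the 6 libraries was nearest to that of HSP90AA1, of 8726 compared by Euclidean distance on log2 CPM from the shCtrl mean, were UNG, RP6-74O6.2, MRPL33, PDZK1P1 and HSP90AA2P. UNG, which encodes uracil-DNA glycosylase, was nearest at a distance of 0.23, with 17.9 to 21.7 CPM in shCtrl and 57.0 to 59.8 CPM in shRBM39. MRPL33, a protein of the mitochondrial ribosome, was at 0.30. HSP90AA2P, at 0.37, is a processed copy of HSP90AA1 with 534 counts over the shCtrl libraries and 1616 over the shRBM39 libraries. It holds 2.24% of the 100-base windows of HSP90AA1, so the split of reads between copy and parent is uncertain in part.

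The rest of the chaperone network was read from 8 lists of 63 genes by role, none of them among the 10, of which 56 were tested. Of these 56, 45 passed an adjusted p of 0.05 in the edgeR fit, 35 higher and 10 lower in shRBM39. That is 62.5% higher and 17.9% lower, beside 29.2% and 29.9% of all tested genes. The 29.2% and 29.9% are the background for each list below, with 59.1% of all tested genes past the threshold in either direction. The median log2 difference was 0.20, beside -0.01 over all tested genes.

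The cochaperones of HSP90 all rose, 12 of 12, with a median log2 difference of 0.45. FKBP4, the immunophilin FKBP52 of steroid receptor complexes, was at 368, 334 and 336 CPM in shCtrl and 657, 645 and 624 CPM in shRBM39, a log2 difference of 0.89 ± 0.04 (SE, edgeR adjusted p = 1.06e-19). CHORDC1 rose from 114 to 195 CPM (log2 difference 0.77 ± 0.04, adjusted p = 9.08e-17) and PPID, the cyclophilin 40 gene, from 145 to 230 CPM (0.67 ± 0.04, adjusted p = 5.72e-17). STIP1, the HOP scaffold that links HSP70 to HSP90, AHSA1, which speeds the HSP90 ATPase, and CDC37, the kinase adaptor, differed by 0.53, 0.51 and 0.38. PTGES3, the p23 gene, had the smallest difference of the list at 0.20.

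In the HSP70 and HSP110 family, 6 of 8 tested genes passed, 4 higher and 2 lower, with a median of 0.17. HSPA2, best known from spermatogenesis, rose from 21.1 to 51.6 CPM (1.29 ± 0.06, SE, edgeR adjusted p = 9.44e-19), and HSPA4, an HSP110 protein, from 245 to 369 CPM (0.59 ± 0.04, adjusted p = 6.13e-16). HSPA1L, under 2 CPM, was just past the threshold at 0.60 ± 0.26 (adjusted p = 0.0466). HSPA12A fell by 0.19 on the log2 scale. HSPA4L differed by -0.18 (adjusted p = 0.0102) with groups that overlapped, a call that was lost under DESeq2 (adjusted p = 0.0600) and without shCtrl replicate 2 or shRBM39 replicate 2. HSPA6, an inducible HSP70 gene that is nearly silent in unstressed cells and has a 3-unit match in its promoter window, had 9 counts over the shCtrl libraries and 4 over the shRBM39 libraries and was too low to test.

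Among J-domain proteins 8 of 11 passed, 7 higher and 1 lower, with a median of 0.18. DNAJA4 rose from 4.63 to 10.5 CPM (1.18 ± 0.12, SE, edgeR adjusted p = 1.39e-10), DNAJA1, a main partner of HSPA8, from 295 to 571 CPM (0.96 ± 0.04, adjusted p = 3.43e-19) and DNAJC8, which is linked to splicing, from 216 to 348 CPM (0.69 ± 0.04, adjusted p = 1.25e-17). DNAJC5, a J-domain protein of secretory vesicles, fell by 0.19. Of 9 exchange factors and cofactors of HSP70, 4 rose and 1 fell, with a median of 0.16. As shares, 44.4% were higher and 11.1% lower, and 55.6% passed in either direction, below the 59.1% of all tested genes. The rise was 0.42 for HSPBP1, 0.36 for BAG1 and 0.33 for BAG3, a partner of HSP70 in selective autophagy, and ST13, the HIP gene, fell by 0.14.

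Small heat shock proteins other than HSPB1 were close to silent. Of 7 genes 1 was tested, HSPB6, which fell from 0.828 to 0.350 CPM (-1.20 ± 0.38, SE, edgeR adjusted p = 6.51e-03), with 38.2% of its exon bases under genes on the other strand. HSPB3 and HSPB8 had no count in any library, and CRYAB, the alpha B crystallin gene, had 3 counts or fewer in each. Of 7 mitochondrial genes, 4 rose and 3 fell, with a median of 0.18. Besides HSPE1, CLPB (0.56 ± 0.05, adjusted p = 1.75e-11), a disaggregase, and GRPEL1 (0.47 ± 0.04, adjusted p = 1.89e-12), the exchange factor of mitochondrial HSP70, rose, whereas the protease gene LONP1 fell by 0.38, DNAJA3 by 0.21 and TRAP1, the HSP90 of mitochondria, by 0.14.

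The 5 heat shock factors and regulators had a median of 0.02, with 2 higher and 1 lower. Of the 5, 60% passed in either direction, close to the 59.1% of all tested genes. Among these regulators HSBP1, which binds HSF1 trimers, rose by 0.55 ± 0.04 (SE, edgeR adjusted p = 1.64e-13). HSF2 was just past the threshold at 0.17 ± 0.08 (adjusted p = 0.0470), a call that was lost in most alternatives. HSF4 fell from 9.84 to 4.03 CPM (-1.29 ± 0.11, adjusted p = 4.39e-12), and 31.4% of its exon bases are shared with another gene on the same strand. UBB, which encodes ubiquitin, rose by 0.15, a call lost under library totals and RPKM. SERPINH1, the collagen chaperone HSP47 and a common target of HSF1, rose by 0.31.

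**Figure D5:**
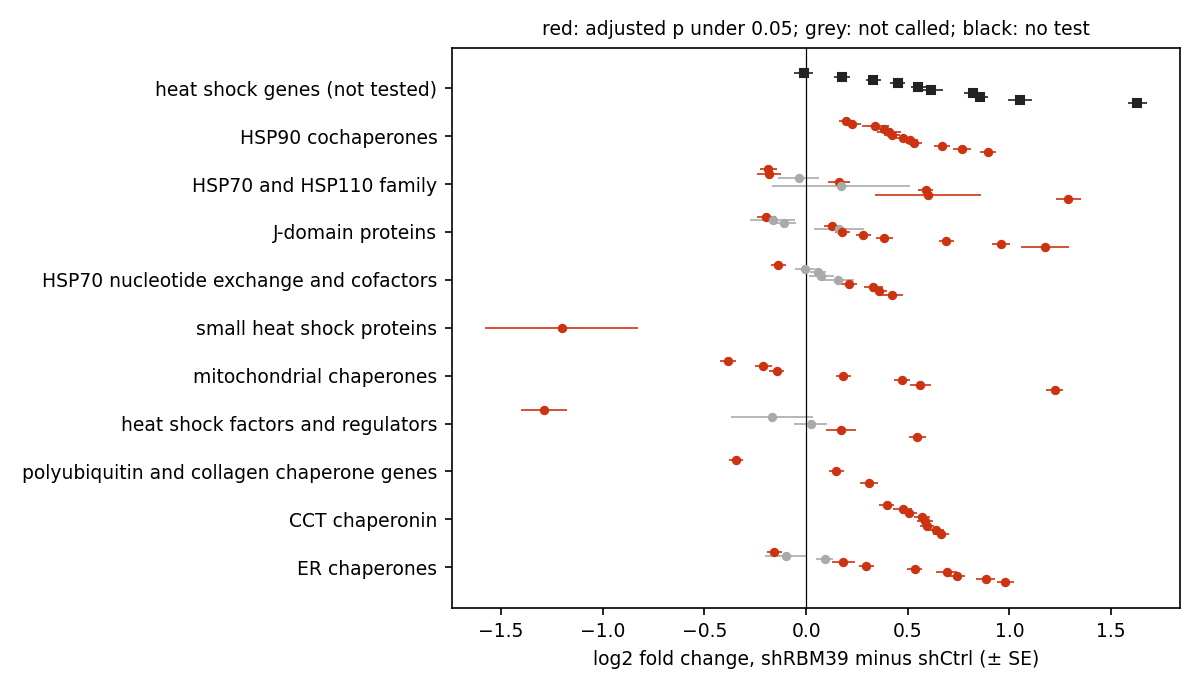
Log2 difference of shRBM39 minus shCtrl (x axis, ± SE) for the 10 heat shock genes (black squares, no test) and for the chaperone network, CCT and ER genes by list (red, adjusted p under 0.05; grey, not past it). All 12 HSP90 cochaperones and all 8 CCT genes lie right of 0, while mitochondrial chaperones lie on both sides.

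Genes of other folding machines were set beside these. All 8 subunits of CCT, the cytosolic chaperonin for actin and tubulin, rose, with a median of 0.58, led by CCT2 at 0.66 ± 0.04 (SE, edgeR adjusted p = 3.02e-16) and TCP1 at 0.64 ± 0.04 (adjusted p = 2.57e-16). Of 10 chaperones of the endoplasmic reticulum, 7 rose and 1 fell, with a median of 0.42. Beside 29.2% of all tested genes, 100% of the CCT list and 70% of the endoplasmic reticulum list were higher. CALR, the lectin chaperone calreticulin, rose from 1088 to 2145 CPM (0.98 ± 0.04, adjusted p = 1.39e-20), HSPA5, the BiP gene, from 385 to 709 CPM (0.88 ± 0.05, adjusted p = 7.91e-18) and PDIA4 from 480 to 802 CPM (0.74 ± 0.04, adjusted p = 4.27e-17), whereas CANX, the membrane-bound counterpart of calreticulin, fell by 0.16. No test of a difference between these lists and the cytosolic genes was made.

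Heat shock element matches of 2 units were present in 31.4% of 51 network genes in the promoter table. They were present in 3 of 7 CCT genes and in 1 of 10 genes of the endoplasmic reticulum. The share was 16.2% of all genes in the promoter table and 13.6% of the tested ones. The 3-unit form was present in 5 of the 51 network genes, or 9.80%, against 0.608% of all genes in the table. It was present in 0 of the 7 CCT genes and 0 of the 10 genes of the endoplasmic reticulum. Of the 12 cochaperones that rose, 10 were in the table and 3 had a match of 2 units. Those of STIP1 and SUGT1 began 13 and 5 bases after a start, and only CHORDC1 had matches before its start. Among the CCT genes, the match of CCT4 began 38 bases after a start.

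The splicing table, which holds records of exon inclusion in 2 groups that are not keyed to the knockdown, had 1582 records for 1198 gene symbols and 0 records for the 10 heat shock genes. It lists only events selected for a difference, so the lack of a record does not show that splicing was unchanged. HSPA1A and HSPA1B have a single exon and could have none. In the network there were 2 records, in 3.57% of the tested genes, against 6.55% of all tested genes and 9.63% of those with at least 50 CPM. The first was exon 3 of 16 of CLPB (chr11:72402966-72403052, 87 bases), where inclusion was 0.827, 0.821 and 0.861 in the libraries of group 1 and 1, 1 and 0.857 in those of group 2, which overlap, on as few as 22 reads. The second was exon 3 of 5 of DEDD2 (chr19:42215133-42215252, 120 bases), where inclusion was 0.743, 0.924 and 0.969 in the first group and 1, 1 and 0.969 in the second, with the nearest values less than 0.001 apart. A record in CCT7, exon 4 of 12, rested on as few as 2 reads. The lengths of these 3 exons are multiples of 3.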

How the data were processed

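Deposited counts per gene were made by the authors from 6 mRNA libraries, with Trimmomatic 0.36, STAR 2.5.3a, featureCounts of Subread 1.5.1, edgeR 3.12.1 and GRCh38 per the submitters' processing notes. Strand setting, multi-mapped reads and molecular identifiers (the kit is stranded and tagged) are not given in the sources used here. RPKM values were deposited by the authors from the same counts and merged exon lengths, without TMM factors. Splicing reads and levels are rMATS output of the authors, whose p-values were not used. Columns headed NC were read as shCtrl.

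Counts were fitted with edgeR 4.0.16 (R 4.3.3) after filterByExpr, with TMM factors, the quasi-likelihood test and Benjamini-Hochberg adjustment over 18243 genes. The fit was tested on simulated data. Values are means ± SD of 3 libraries or log2 differences ± SE. The 10 genes and all lists were chosen with earlier results of these data known. Network genes named were those past an adjusted p of 0.05 with the 3 largest differences in each direction of a list, and any gene with no counts. Also named were the 5 profiles most like HSP90AA1, at a mean of at least 5 CPM and with groups that do not overlap. HSPA6, CRYAB, STIP1, AHSA1, CDC37, PTGES3 and the markers named by gene were added after their values were seen. Alternatives were DESeq2 1.42.0, other scalings and filters, limma 3.58.1 on log2(RPKM + 1) and log2(RPKM + 0.1), a block for the replicate number, and each library left out. Same-numbered libraries did not deviate together over all tested genes (r = 0.0073, -0.0271 and -0.0003), and the main fit used no pairing. A pairing that touches few genes would not show in these values. A result that the rule would name is not reported here.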

Additional observations from a re-analysis of the deposited data

How the results depend on the processing

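Every heat shock gene but HSF1 kept a positive log2 difference under all alternatives run. HSF1 lay between -0.14 and 0.0048, and no network gene named changed sign. With library totals in place of TMM, HSP90AA1 differed by 1.51, and by 1.504 with log2(RPKM + 1) and 1.51 with log2(RPKM + 0.1), against 1.63. Those scalings move the median of all tested genes from -0.01 to -0.14, -0.08 and -0.13 and the share of calls that are higher from 49.4% to 33.9%, 33.6% and 33.6%, and HSPB1 then differed by 0.05. Network calls ranged with them from 35 higher and 10 lower to 26 higher and 13 lower. The HSP90AA1 to HSP90AB1 ratio on counts was 0.566 in shCtrl and 1.20 in shRBM39, and with canonical transcript lengths, chosen after seeing the data, 0.448 and 0.947, by construction. Leaving out each library gave 1.58 to 1.69 for HSP90AA1, 32 to 35 network genes higher and 9 to 11 lower, 8 CCT genes higher, and 7 to 8 endoplasmic reticulum genes higher and 1 lower. With the replicate block HSP90AA1 differed by 1.63, 33 network genes were higher and 10 lower, and HSPA1L (0.61, adjusted p = 0.0527) and HSF2 (0.17, adjusted p = 0.0556) were no longer past the threshold. HSPA1L and HSF2 were also lost under DESeq2 and most single-library removals, HSPA4L under DESeq2 (adjusted p = 0.0600) and without shCtrl replicate 2 or shRBM39 replicate 2, HSPB6 without shRBM39 replicate 3 (-0.92, adjusted p = 0.0582), and UBB under library totals and RPKM. The cause was not tested. Depth limits HSPA6 and the small heat shock genes other than HSPB1, which were too low to compare.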
